A study of Mus musculus with 12 samples.

Results

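The 10 genes described here either report or restrain signalling by bone morphogenetic proteins (BMPs) in a growing mouse molar. They are the transcription inhibitor genes Id1, Id2, Id3 and Id4, the feedback inhibitor genes Smad6 and Bambi, and the genes of the secreted antagonists Nog (noggin), Fst (follistatin), Sostdc1 (sclerostin domain containing 1) and Chrdl1 (chordin-like 1). They were chosen by gene symbol, and each matched exactly 1 row of the 25899 genes in the table. RNA sequencing was done on 12 libraries from the apical, root-forming end of the lower first molar of C57BL/6 pups at postnatal day 4. Of these, 6 came from mice with no intact copy of Nfic (Nfic-/-, here null) and 6 from littermates with 1 intact copy (Nfic+/-, here heterozygous), so the controls also lack a copy. Nfic encodes a nuclear factor I transcription factor, and the series title sets it upstream of Hedgehog signalling in root development. Libraries are numbered 5 to 10 in each genotype.

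BMPs are secreted proteins that assemble type I and type II receptor kinases on the cell surface. The type I receptor phosphorylates Smad1, Smad5 and Smad9, which enter the nucleus with Smad4 and switch on target genes, among them the Id genes and Smad6. In the developing tooth BMPs pass in both directions between dental epithelium and dental mesenchyme, and their extent is set by antagonists that bind the ligand outside the cell and by inhibitors inside it. Values below are RPKM, read counts scaled by gene length and by the depth of the library, so levels of different genes can be compared per length.

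The libraries held 70.2 to 96.4 M reads as recovered from the values, and 11014 to 12518 genes had 1 RPKM or more. Enamel (Amelx, Ambn, Enam), dentin (Dspp) and dental epithelium (Krt14) genes were high in every library. Libraries 8 and 9 of both genotypes carried intestinal transcripts, with a list level of 2.89 to 3.30 in mean log2(RPKM + 1) against 0.03 to 0.06 in the other 8 libraries. Nfic itself had 16.8 ± 4.42 RPKM in the heterozygous and 11.4 ± 3.02 RPKM in the null libraries (SD, n = 6 each), and the groups overlapped. Its difference was -0.52 in log2(RPKM + 1), with an exact 2-sided permutation p = 0.0303. In the limma fit over all tested genes used below, Nfic had an adjusted p = 0.934 and did not pass 0.05. Where the signal left in the null molars came from in the gene was not tested.

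The promoters of Smad6 and Id4 are shown because these genes had the most negative and the most positive difference of the set. RefSeq promoters of 4 of the 10 genes were searched here, and the promoters of the others were not. Each sequence gives the 250 bases before the start site, 5′ to 3′ on the gene's strand in GRCm38.p6. The Smad6 window is chr9:64022060-64022309, minus strand, and the Id4 window is chr13:48260866-48261115, plus strand. Capitals mark TTGGC on either strand, the core letters of a nuclear factor I site.
Smad6: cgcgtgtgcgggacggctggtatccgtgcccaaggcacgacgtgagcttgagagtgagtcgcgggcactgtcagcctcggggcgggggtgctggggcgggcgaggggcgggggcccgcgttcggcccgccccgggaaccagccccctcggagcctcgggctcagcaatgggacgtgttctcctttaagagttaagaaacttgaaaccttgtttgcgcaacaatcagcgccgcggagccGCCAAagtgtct
Id4: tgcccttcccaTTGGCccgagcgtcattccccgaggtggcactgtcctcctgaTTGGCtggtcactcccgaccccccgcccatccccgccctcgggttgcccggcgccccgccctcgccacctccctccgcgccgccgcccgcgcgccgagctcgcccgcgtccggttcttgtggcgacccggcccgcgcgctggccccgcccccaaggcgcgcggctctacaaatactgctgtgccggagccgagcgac
The Smad6 window held 1 match and the Id4 window 2, the windows of Id2 and Id3 held 1 each, and 41.5% of 32851 RefSeq promoters of the same length held at least 1. The palindrome GGCGCC, the GC-rich element that BMP Smads bind, was in the windows of Id2 and Id4 and not in those of Id3 and Smad6, against 9.59% of all promoters. These 4 windows were 62.8% to 75.6% G and C, and the share over all promoters was not matched for that content. GTCT, searched on both strands, was in the windows of Id2, Id3 and Smad6 and not in that of Id4, against 82.9%. The motifs GGCGCC and TTGGC did not overlap in the Smad6 and Id4 windows, and a match of letters is no evidence of binding.

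Id3 and Id1 were the most abundant of the 10 genes and Chrdl1 the least. Over all 12 libraries the means ran from Id3 (124 RPKM), Id1 (101 RPKM), Bambi (68.9 RPKM), Id2 (52.1 RPKM), Sostdc1 (51.4 RPKM) and Id4 (49.9 RPKM) to Smad6 (29.9 RPKM), and then Fst (5.79 RPKM), Nog (5.36 RPKM) and Chrdl1 (0.665 RPKM). The ranges over the libraries of neighbours in this order overlapped, except that the lowest Smad6 value (21.6 RPKM) lay above the highest Fst value (11.3 RPKM) and the lowest Nog value (2.04 RPKM) above the highest Chrdl1 value (1.02 RPKM). The Chrdl1 values rested on an estimated 165 to 659 reads per library, those of Nog on 243 to 1419 and those of Fst on 583 to 4870, with at least 4869 for each of the other genes. Chrdl1 had a mean under 1 RPKM and was left out of the test across genes, so 9 of the 10 genes were tested among 12094.

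**Figure D1:**
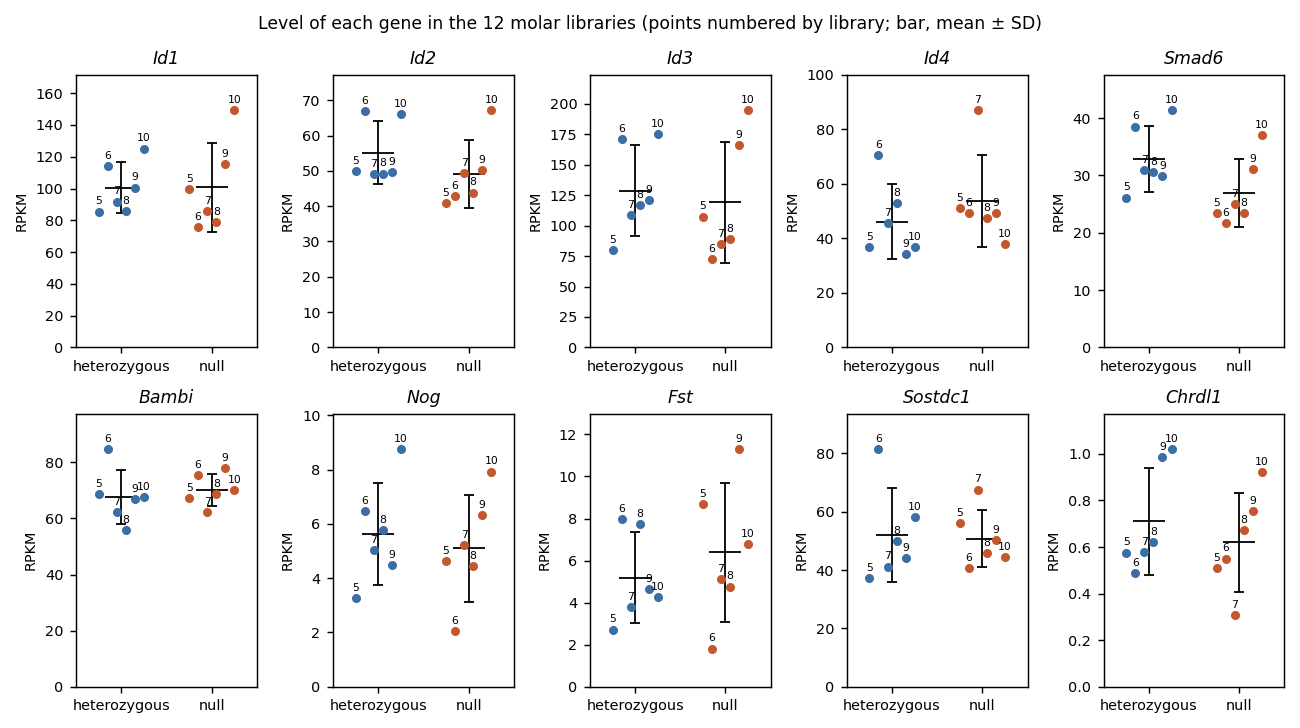
RPKM (y axis, from 0) of each of the 10 genes in 6 heterozygous (blue) and 6 null (orange) libraries, each point carrying its library number, with the mean and SD as a bar. The 2 groups overlap in every panel, and the libraries numbered 10 are the highest of their genotype for Id1, Id3, Smad6, Nog and Chrdl1.

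No gene of this set differed between the genotypes past the threshold, and Smad6 came nearest. Of the 9 tested genes 0 passed an adjusted p of 0.05 by limma with Benjamini-Hochberg adjustment over all 12094 genes, where 0 genes in all passed (0%). At an unadjusted p under 0.05 there were also 0 of 9 on the deposited scale, against 5.34% of all genes. For 0 of the 10 genes were the groups of libraries apart, against 0.157% of all tested genes. Of the 9 genes 3 stood above 0 and 6 below, against 48.9% and 51.1% of all tested genes. The median difference was -0.02 in log2(RPKM + 1) over the 9 genes and -0.003 over all tested genes. The median size of the difference, sign aside, was 0.16 over the 9 genes and 0.07 over all, and the median SE was 0.17 and 0.11. Each adjusted p of a difference named below is from this fit unless a scaling is named.

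The Id proteins are helix-loop-helix proteins that lack a DNA-binding region and hold E proteins off DNA, and their genes are widely used as a readout of BMP Smads. Id1 ranged from 85.5 through a median of 96.2 to 125 RPKM in the heterozygous and from 75.6 through 92.6 to 149 RPKM in the null libraries. The lowest and the highest of the 12 values were both null libraries, numbers 6 and 10. The means were 100.5 ± 16.1 and 101 ± 27.98 RPKM (SD, n = 6 each), a difference of -0.02 in log2(RPKM + 1) with a 95% interval from -0.37 to 0.32 (adjusted p = 1). It was -0.14 without null library 10 and 0.05 without null library 6.

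Id3 spread more widely than Id1 over the same libraries. It ran from 80.2 through 119 to 175 RPKM in the heterozygous and from 72.5 through 98.1 to 195 RPKM in the null libraries, again with null libraries 6 and 10 at the ends. Its means were 129 ± 37.2 and 119 ± 49.7 RPKM (SD, n = 6 each), and the difference was -0.16 (95% interval -0.70 to 0.39; adjusted p = 1). It was -0.32 without null library 10 and -0.03 without null library 6. Its SD within genotypes was 0.50 log2, against a median of 0.20 log2 over all tested genes.

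Id2 was steadier, from 49.2 through 49.7 to 67.0 RPKM in the heterozygous and from 40.9 through 46.7 to 67.2 RPKM in the null libraries. In the heterozygous group 4 libraries lay within 49.2 to 49.8 RPKM and numbers 6 and 10 stood apart at 67.0 and 66.1 RPKM. In the null group number 10 stood alone at the top. The difference was -0.17 (SE 0.128; 95% interval -0.45 to 0.10; adjusted p = 1), and it was -0.26 without null library 10 and -0.11 without heterozygous library 6.

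Id4 was the Id gene with a positive difference on the log2 scale. Its values ran from 34.2 through 41.3 to 70.7 RPKM in the heterozygous and from 38.0 through 49.2 to 87.0 RPKM in the null libraries, and the highest were null library 7 and heterozygous library 6, not the libraries numbered 10. The difference was 0.21 (SE 0.200; 95% interval -0.22 to 0.64; adjusted p = 1), and it was 0.06 without null library 7 and 0.34 without heterozygous library 6. Id4 made up 14.1% ± 3.23 of the summed RPKM of the 4 Id genes in heterozygous and 17.6% ± 6.77 in null libraries (SD, n = 6 each), from 8.46% in null library 10 to 28.3% in null library 7. The share of Id1 was nearly constant, at 27.0% to 33.9% over all libraries, and that of Id3 ran from 27.7% to 43.6%. The summed Id level was 331 ± 67.0 RPKM in heterozygous and 323 ± 78.9 RPKM in null libraries.

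**Figure D2:**
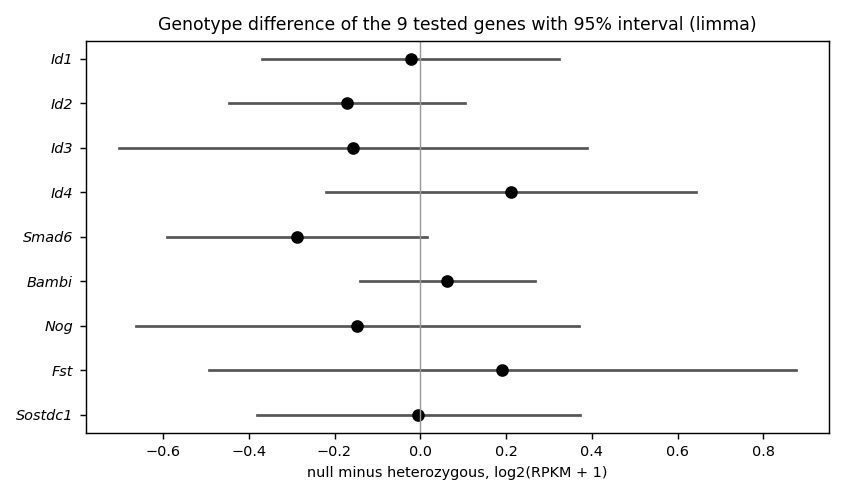
Difference between null and heterozygous libraries in log2(RPKM + 1) (x axis) for the 9 tested genes, with the 95% interval from limma as a line. Each interval includes 0, and that of Smad6 reaches from -0.59 to 0.02.

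Smad6, the inhibitory Smad that a BMP signal induces and that blocks the type I receptor and the signalling Smads, had the most negative difference of the set. It ran from 26.1 through 30.8 to 41.4 RPKM in the heterozygous and from 21.6 through 24.2 to 37.0 RPKM in the null libraries. Of the null libraries 4 lay below the lowest heterozygous one, and numbers 9 and 10 lay within the heterozygous range. The means were 32.9 ± 5.80 and 26.9 ± 5.93 RPKM (SD, n = 6 each), so the null mean stood at 81.8% of the heterozygous one. The difference was -0.29 (SE 0.141; adjusted p = 0.945), with an unadjusted p = 0.0610 and an exact 2-sided permutation p = 0.0931. Among libraries 5 to 7 it was -0.42, and among libraries 8 to 10 it was -0.16. Other scalings of the libraries left the size near this and lowered the error. With upper-quartile, median-ratio and quantile scaling the Smad6 difference was -0.28, -0.28 and -0.30, with an unadjusted p = 0.00503, 0.00325 and 0.00592 and an adjusted p = 0.52, 0.505 and 0.47 by limma. In those limma fits 1095, 1128 and 1188 of the 12094 genes fell under that unadjusted limit of 0.05, against 646 on the deposited scale. Among the tested genes of the set Smad6 did so in each, and Id2 just did with quantile scaling.

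Bambi, a decoy receptor that resembles a type I receptor without its kinase, varied least of the tested set. It ran from 55.7 through 67.2 to 84.6 RPKM in heterozygous and from 62.2 through 69.4 to 77.8 RPKM in null libraries, and the null values lay within the heterozygous range. Its SD within genotypes, 0.16 log2, was above that of 30.5% of tested genes, and 8 of the 10 genes lay above the median. The difference was 0.06 (SE 0.0945; 95% interval -0.14 to 0.27; adjusted p = 1), and it was 0.01 without heterozygous library 8 and 0.13 without heterozygous library 6. Libraries 5 to 7 gave -0.06 and libraries 8 to 10 gave 0.19, and the difference between these did not pass (interaction 0.25, unadjusted p = 0.210, adjusted p = 1 by limma).

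Among the secreted antagonists, noggin binds BMPs and covers their receptor-binding faces. Nog ran from 3.28 through 5.40 to 8.74 RPKM in heterozygous and from 2.04 through 4.92 to 7.93 RPKM in null libraries, with null library 6 lowest and the libraries numbered 10 highest in both genotypes. The difference was -0.15 (SE 0.240; 95% interval -0.66 to 0.37; adjusted p = 1), and it was 0.04 without null library 6 and -0.27 without null library 10.

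Fst encodes follistatin, which binds activins tightly and some BMPs, and which in mouse incisors limits where enamel forms. It was the most variable gene of the set, with a 6.23-fold range between null library 6 (1.81 RPKM) and null library 9 (11.3 RPKM). The heterozygous values ran from 2.72 through 4.46 to 7.96 RPKM and the null ones from 1.81 through 5.95 to 11.3 RPKM. The null group thus held both the lowest value and the 2 highest. The difference of 0.19 (SE 0.318; 95% interval -0.49 to 0.88; adjusted p = 1) became 0.02 without null library 9 and 0.44 without null library 6.

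Sostdc1, which in mice restrains tooth number and cusp pattern and whose product binds BMPs and the Wnt co-receptors of the Lrp family, showed nearly equal means. It ran from 37.3 through 47.0 to 81.3 RPKM in heterozygous and from 40.7 through 48.0 to 67.5 RPKM in null libraries. Heterozygous library 6 and null library 7 were the highest of their groups, as they were for Id4. The difference was -0.004 (SE 0.175; 95% interval -0.38 to 0.37; adjusted p = 1), and it was 0.13 without heterozygous library 6 and -0.09 without null library 7.

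Chrdl1, a chordin-like BMP antagonist, ran from 0.487 through 0.600 to 1.02 RPKM in heterozygous and from 0.306 through 0.612 to 0.923 RPKM in null libraries. Null library 7, the highest for Id4, was the lowest for Chrdl1. The difference was -0.08 in log2(RPKM + 1), a scale that understates a change at such a level, with an exact 2-sided permutation p = 0.483. It was -0.13 without null library 10 and -0.02 without null library 7.

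The relations among the 10 genes from library to library were, on the deposited scale, about as frequent as among all genes. Over the 45 pairs, Pearson r in log2(RPKM + 1) over the 12 libraries passed an adjusted permutation p of 0.05 in 12, of which 11 were positive and 1 negative. These 12 pairs, 26.7% of the 45, had an r of 0.713 or more in size, and so had 25.1% of all pairs of the 12094 tested genes, so the count says nothing particular about the set. By rank correlation 9 of the 45 passed. The p-values are from 100000 resamples, 2-sided, adjusted over all 95 relations computed, and libraries of littermates may not be fully independent. On deviations from the genotype means 14 of the 45 pairs passed.

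A scale factor common to whole libraries moved with these relations. Median-ratio scaling, tried on the relations after their values had been seen, divides each library by the median ratio of its genes to their mean over libraries, and this factor ran from 0.830 in heterozygous library 5 to 1.18 in heterozygous library 6. After scaling 7 of the 45 pairs passed, 4 positive and 3 negative, and 5 of them were among the 12. Of all gene pairs 8.18% then reached an r of 0.713 in size, against 15.6% of the 45. The median r over the 45 pairs went from 0.39 to 0.05.

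Id1, Id2, Id3, Smad6 and Nog were grouped after the relations on the deposited scale had been seen. That all 10 of their pairs passed on that scale thus follows from the choice and is no separate result. After scaling 3 of the 10 passed. Id1 with Id3 was the closest before scaling (r = 0.937, permutation p = 1e-05, adjusted p = 0.000475; rho = 0.944, permutation p = 1e-05, adjusted p = 0.00095), where a permutation p of 1e-05 is the smallest the resamples can give, and r was 0.920 without the 2 farthest libraries, 0.962 among libraries 5 to 7 and 0.963 among 8 to 10. After scaling it had r = 0.751 (adjusted p = 0.0255). Id2 with Smad6 (r = 0.924, permutation p = 5e-05, adjusted p = 0.00095; rho = 0.832, permutation p = 0.00104, adjusted p = 0.00898) passed on both scales and by rank, with r = 0.796 after scaling (adjusted p = 0.0192). The third was Id3 with Nog, at r = 0.872 before and 0.759 after scaling (adjusted p = 0.019). By rank neither this pair nor Id1 with Id3 passed after scaling (permutation tests, adjusted p = 0.0523 and 0.0878). The other 7 pairs did not pass after scaling, such as Id2 with Nog, at r = 0.745 before and 0.285 after.

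Id4 went against Chrdl1 on both scales. The deposited scale gave r = -0.829 (permutation p = 0.00065, adjusted p = 0.00561), and by rank it did not pass (rho = -0.706, permutation p = 0.0127, adjusted p = 0.0547). After scaling both passed (r = -0.923, permutation p = 3e-05, adjusted p = 0.00285; rho = -0.874, permutation p = 0.00037, adjusted p = 0.0237). On the deposited scale r was -0.701 without the 2 farthest libraries, -0.894 among libraries 5 to 7 and -0.953 among 8 to 10. Id4 with Sostdc1 (r = 0.713, permutation p = 0.0103, adjusted p = 0.0418; rho = 0.650, permutation p = 0.0254, adjusted p = 0.0893) did not pass by rank and had r = 0.239 without the 2 farthest libraries, and after scaling r was 0.735 (adjusted p = 0.0305). With Id1, Id4 had r = -0.27 before and -0.712 after scaling (adjusted p = 0.057). Bambi had r between -0.05 and 0.32 with the other 9 genes on the deposited scale, whereas after scaling it went against Nog (r = -0.832, permutation p = 0.00061, adjusted p = 0.0112; rho = -0.720, permutation p = 0.0105, adjusted p = 0.071). Sostdc1 with Chrdl1 also passed after scaling alone (r = -0.796, adjusted p = 0.0192), with r = -0.434 without the 2 farthest libraries. Neither of these passed by rank.

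**Figure D3:**
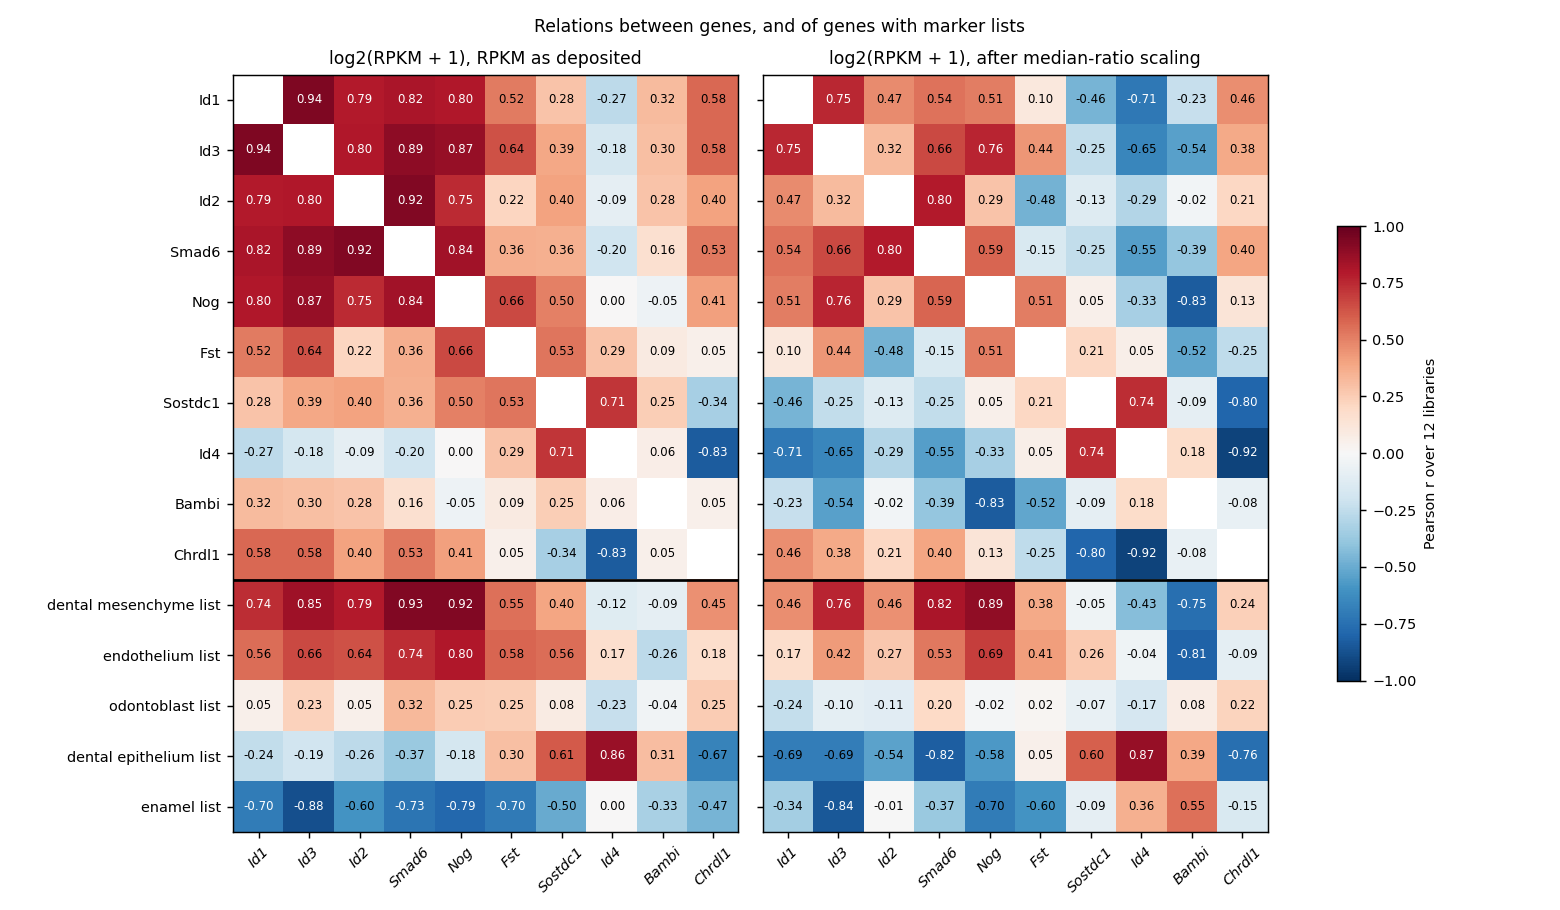
Pearson r over 12 libraries (colour and printed value) between each pair of the 10 genes (upper block) and of each gene with the mean log2(RPKM + 1) of 5 marker lists (lower block), for RPKM as deposited (left) and after median-ratio scaling (right). The positive block of Id1, Id3, Id2, Smad6 and Nog was picked from the values on the left. It is paler on the right, where 3 of its 10 pairs passed. Id4 keeps its negative r with Chrdl1 and its positive r with the dental epithelium list.

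Some genes moved with the marker genes of a tissue on both scales. The share of all tested genes that moved as closely with each list was not computed. Of pairs of single genes 25.1% reached an r of 0.713 in size on the deposited scale and 8.18% after scaling. The relations below are thus not shown to be particular to the set. In bulk RNA fewer cells of a type and less RNA per cell cannot be told apart. The dental mesenchyme list (8 genes, among them Pax9, Barx1 and Runx2) was related to Smad6 (r = 0.926, permutation p = 2e-05, adjusted p = 0.000633; rho = 0.958, permutation p = 2e-05, adjusted p = 0.00095), with r = 0.817 after scaling (adjusted p = 0.0112). Its relation to Nog (r = 0.924, permutation p = 1e-05, adjusted p = 0.000475; rho = 0.888, permutation p = 0.00024, adjusted p = 0.00491) had r = 0.887 after scaling (adjusted p = 0.0112), and that to Id3 (r = 0.850, permutation p = 0.00027, adjusted p = 0.00285; rho = 0.860, permutation p = 0.00079, adjusted p = 0.00779) had r = 0.763 (adjusted p = 0.0192). On the deposited scale r without the 2 farthest libraries was 0.957 for Smad6, 0.790 for Nog and 0.824 for Id3, and within libraries 5 to 7 and 8 to 10 it was between 0.791 and 0.959 for all 3 genes. After scaling r without the 2 farthest libraries was 0.859 for Smad6, 0.608 for Nog and 0.668 for Id3. Id2 and Id1 passed on the deposited scale (r = 0.794 and 0.737) and not after scaling (r = 0.458 and 0.461). Bambi passed after scaling alone, with r = -0.752 (adjusted p = 0.028), though not by rank, and r was -0.492 without the 2 farthest libraries.

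The same list was lower in the null libraries by 0.46 in mean log2(RPKM + 1), at 2.98 against 3.44, with 7 of 8 markers tested and all 7 lower. Its summed level ran from 250 to 523 RPKM in heterozygous and from 136 to 462 RPKM in null libraries, with null library 6 lowest and heterozygous library 10 highest. The endothelium list (8 of 8 markers lower, 31.1 to 64.2 RPKM against 17.1 to 52.1 RPKM) was related to Nog (r = 0.802, permutation p = 0.00203, adjusted p = 0.0116; rho = 0.755, permutation p = 0.00654, adjusted p = 0.0387) and Smad6 (r = 0.740, permutation p = 0.00502, adjusted p = 0.0238; rho = 0.685, permutation p = 0.0169, adjusted p = 0.0699) on the deposited scale, the latter not by rank. Neither passed after scaling (r = 0.691 and 0.531). On the deposited scale r was 0.639 and 0.557 without the 2 farthest libraries, and for Nog it was 0.959 among libraries 5 to 7 but 0.508 among 8 to 10. After scaling the endothelium list went against Bambi (r = -0.811, adjusted p = 0.019). The part of either tissue in the Smad6 difference was not tested.

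Id4 followed the dental epithelium list of 10 genes (r = 0.862, permutation p = 0.00013, adjusted p = 0.00206; rho = 0.811, permutation p = 0.00227, adjusted p = 0.018), with r = 0.739 without the 2 farthest libraries, 0.867 among libraries 5 to 7 and 0.771 among 8 to 10. After scaling r was 0.870 (adjusted p = 0.0112). That list was higher in null libraries by 0.35 in mean log2(RPKM + 1), with all 9 tested markers higher, and its sum ran from 1501 to 2368 RPKM in heterozygous and from 1813 to 2691 RPKM in null libraries. Smad6 and Chrdl1 went against the list after scaling alone (r = -0.823 and -0.756, adjusted p = 0.0171 and 0.028), the latter not by rank. On the deposited scale r was -0.372 for Smad6 and -0.670 for Chrdl1. On deviations from the genotype means it was -0.130 and -0.671 on that scale, and such deviations were not used after scaling. The part of the epithelium in the Id4 difference was not tested.

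The enamel list of 6 genes ran against Id3 on both scales (r = -0.883, permutation p = 0.00024, adjusted p = 0.00285; rho = -0.867, permutation p = 0.00053, adjusted p = 0.00719 on the deposited scale), and r was -0.874 without the 2 farthest libraries, -0.961 among libraries 5 to 7 and -0.764 among 8 to 10. After scaling r was -0.844 (adjusted p = 0.0112). On the deposited scale Nog, Smad6, Fst and Id1 also passed (r = -0.789, -0.732, -0.704 and -0.701), Fst not by rank (adjusted p = 0.0893), and after scaling none of these 4 did by r, though Nog did by rank (rho = -0.790, permutation p = 0.00329, adjusted p = 0.0418). Amelx, the amelogenin gene, alone took from 3.40% of gene reads in heterozygous library 6 to 13.5% in heterozygous library 5, and the 4 libraries with the lowest Amelx share were the 4 with the highest Id3 level. The odontoblast list passed with none of the 10 genes on either scale. Its null minus heterozygous difference was -0.49 in mean log2(RPKM + 1), with all 6 markers lower, and that of the enamel list was 0.12.

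The tested genes most like each of the 10 in their pattern over the 12 libraries were found by Pearson r in log2(RPKM + 1) on the deposited scale, the 3 highest for each, as a description with no test. For Id1 these were Serf1, Ift81 and Cacybp (r from 0.982 to 0.984), and for Id3 they were Cnp, Nrbp1 and Isy1 (0.985 to 0.986). Snx2, Cdc42 and Pctp were nearest to Id2 (0.933 to 0.941), and Ryk, Vwa1 and Galc to Id4 (0.943 to 0.955). Smad6 had Gem, Cox4i2 and Chn1 (0.974 to 0.980) and Nog had Tns3, Ccdc102a and Rbms2 (0.967 to 0.975). Foxo6, Ramp1 and Tmem200a were nearest to Fst (0.936 to 0.967), and Scap, Cul4b and Zxdb to Sostdc1 (0.937 to 0.964). Bambi (Zfp719, Slc17a9 and Mak16, 0.843 to 0.925) and Chrdl1 (Scrn1, Abhd3 and Vash1, 0.835 to 0.860) had the lowest values. These are the highest out of 12094 genes over 12 libraries and were picked for being so.

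Around the 10 genes, 62 other genes of the pathway were listed by role, 49 of them were tested, and 0 of 49 passed the threshold. At an unadjusted p under 0.05 there were 7 of 49, of which Bmp5 was the one with a positive difference, against the 5.34% of all tested genes. Among BMP ligand genes, 6 of the 12 tested stood higher and 6 lower in null libraries (median -0.02). Gdf7 stood at 3.90 ± 1.80 RPKM in heterozygous against 1.89 ± 1.49 RPKM in null libraries (difference -0.81, SE 0.290, adjusted p = 0.934), and Bmp5 went the other way, at 2.82 ± 0.833 and 4.26 ± 1.24 RPKM (0.44, SE 0.196, adjusted p = 0.934; SD, n = 6 each). Of the activin and inhibin subunits, the ligands that follistatin meets, 2 of 5 were tested, Inha (0.13) and Inhbb (0.08).

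Of 9 tested receptor and co-receptor genes, 3 stood higher and 6 lower (median -0.03), and Bmpr1b was not tested, at 0.0242 ± 0.0171 and 0.0122 ± 0.00877 RPKM (SD, n = 6 each). The type I receptor gene Acvrl1 (2.10 ± 0.707 and 1.27 ± 0.598 RPKM, difference -0.46) and the co-receptor gene Eng (9.03 ± 2.14 and 6.28 ± 2.60 RPKM, difference -0.53) had the smallest p (SD, n = 6 each; adjusted p = 0.934 for both). Both are typical of endothelium, whose marker list was lower by 0.38 in mean log2(RPKM + 1); its part in these differences was not tested. Of the 6 signalling Smads and ubiquitin ligases 5 stood lower, by small amounts (median -0.06), with Smad4 at -0.11 and Smad1 at -0.08.

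Of 6 further BMP target genes 5 stood lower (median -0.26). Msx1, a homeobox gene of dental mesenchyme, had 38.2 ± 10.2 and 24.5 ± 15.5 RPKM (difference -0.76, SE 0.311, adjusted p = 0.934), and Hey1, a repressor gene, had 33.8 ± 8.81 and 25.6 ± 11.5 RPKM (-0.44, SE 0.248, adjusted p = 0.973; SD, n = 6 each). Of the other antagonist genes, 8 of 15 were tested, 7 stood lower and 1 higher (median -0.08), with Nbl1 at 41.8 ± 21.2 and 24.6 ± 20.6 RPKM (-0.94, SE 0.481, adjusted p = 0.945; SD, n = 6 each). The E proteins that Id proteins bind stood at -0.11 for Tcf4 and -0.06 for Tcf12, and the Wnt co-receptor genes Lrp4 and Lrp5 at -0.18 and -0.16.

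**Figure D4:**
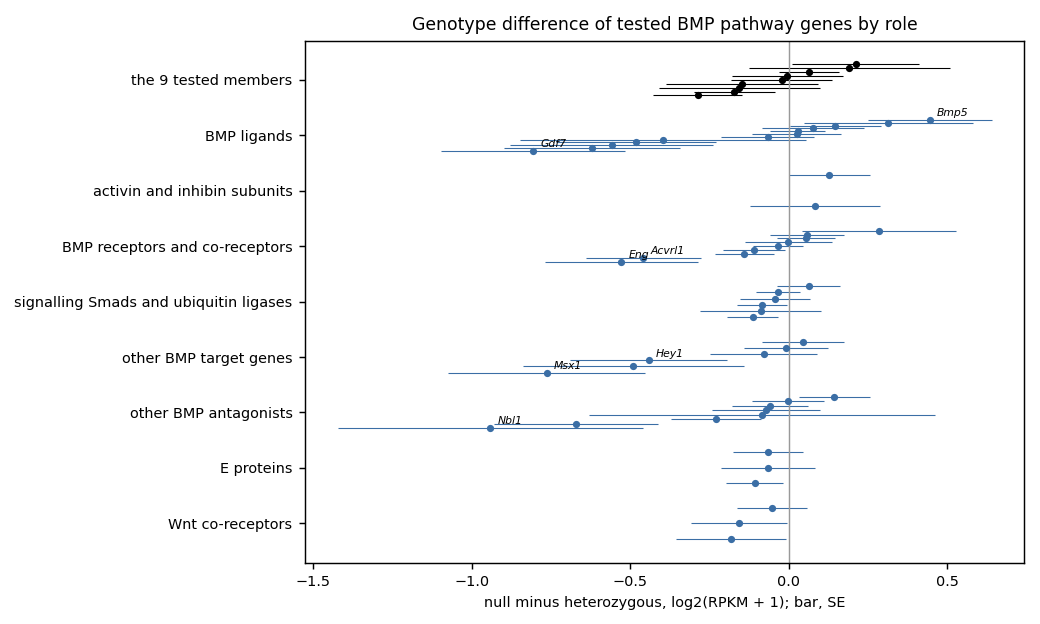
Difference between null and heterozygous libraries in log2(RPKM + 1) with its SE (x axis) for the 9 tested genes of the set (black) and for tested pathway genes by role (blue), where names mark the 2 genes with the smallest p of the ligand, receptor and target lists, and Nbl1. The set lies between -0.29 and 0.21, inside the span of the ligand genes, which run from -0.81 to 0.44.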

How the data were processed

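The deposited table holds values that the authors described as RPKM, 1 column per library. TopHat2 and the build mm10 are named in the submitters' processing notes; how reads were counted and on which gene models is not given there. The values run from -11.1 to 16.7 and were read as log2 RPKM as deposited by the authors, where linear RPKM had been assumed. Base 2 was checked by summing over GENCODE M21 gene lengths, which accounted for 0.773 to 0.835 of the depth, whereas base e gave an impossible 8.23 to 28.4. Genes without reads carry a floor of 0.9 reads, and 100% of 7081 low values were whole reads within 0.02. Of the IDs 24987 matched GENCODE and 912 did not.

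The scale of all tests was log2(RPKM + 1) after back-transformation. The 12094 genes whose mean reached 1 RPKM entered limma 3.58.1 (R 4.3.3), with an intensity trend, genotype as the only term and Benjamini-Hochberg adjustment at 0.05. The procedure was tested on simulated data. Single values were tested by exact permutation of 924 assignments, relations by permutation with scipy 1.17.1 and numpy 2.4.6 in Python 3.11.15. Reads per gene were estimated from RPKM, depth and exon length. No count test was made.

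The genes and lists were chosen with earlier results of these data known. Named are all 10 genes, Nfic, the 2 pathway genes of each list with the smallest p, and the 3 genes nearest in pattern to each of the 10; 1 gene that this rule gives is not reported here. Marker lists of follicle, muscle, cartilage and immune cells differed between the genotypes by -0.54, 0.23, -0.10 and -0.19 in mean log2(RPKM + 1), and the intestinal list by 0.06. The labels do not say whether a number marks a litter. Each p-value sets a difference or a relation against the spread between these libraries.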

Additional observations from a re-analysis of the deposited data

Results flagged for a closer look

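Id4 in null library 7 had 87.0 RPKM, far above the other 5 null libraries, which ran from 38.0 to 51.2 RPKM. In log2(RPKM + 1) its gap to the next value was 0.642 of the range of the group, past Dixon's 95% critical value for 6 samples. Of 22 groups examined (10 genes and Nfic in 2 genotypes) this was the 1 group so marked, and chance alone marks about 1 in 20. Without this library the Id4 difference was 0.06. The same library had the highest dental epithelium list level, at 6.40 in mean log2(RPKM + 1); the part of that in the Id4 value was not tested.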

How the results depend on the processing

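None of the 9 tested genes passed the threshold under any of the 33 alternatives. With 6 libraries a genotype the exact rank test could have called a gene only if many genes had reached its smallest p. That p requires groups that do not overlap, as in 0.157% of all tested genes. Chrdl1 was tested only with no filter (adjusted p = 1 by limma). Smad6 stayed lower in all 33 alternatives, from -0.38 to -0.22 when single libraries were left out, and Id2 stayed lower and Id4 higher throughout. Signs of the small differences turned with the libraries used. Sostdc1 was 0.0036 and 0.0077 with upper-quartile and median-ratio scaling, 0.191, 0.0202 and 0.0709 without both libraries numbered 6, 8 or 10, and 0.0987 in libraries 5 to 7 alone. Without both libraries numbered 6, Id1, Id3 and Nog were 0.0902, 0.0580 and 0.0837, and in libraries 8 to 10 alone Id1 and Id3 were 0.111 and 0.0734. Fst was -0.0465 without both libraries numbered 5. Bambi was -0.0341 without libraries 8 and 9 and -0.0628 in libraries 5 to 7 alone. With single libraries left out, Id1 ran from -0.143 to 0.0513, Sostdc1 from -0.0891 to 0.133 and Nog from -0.271 to 0.0397. The cause was not tested. Genes at an unadjusted p under 0.05 numbered 646 in the reported fit and from 271 (libraries 8 to 10 alone) to 1582 (replicate block without both libraries numbered 6).

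Deviations from the genotype means correlated between same-numbered libraries at 0.00502 for number 6 and from 0.310 to 0.802 for the other numbers. For numbers 8, 9 and 10 the same-numbered libraries were the closest across the genotypes in both directions. The numbers thus carried shared structure in part, while the reported fit kept genotype as its only term. With the number as a replicate block 0 genes passed and Smad6 had an unadjusted p = 0.0266 (adjusted p = 0.524 by limma). The block without both libraries numbered 6, added after the values had been seen, called 11 genes, none of the 9 tested genes of the set among them; there Id4, Smad6 and Fst were 0.357, -0.184 and 0.564, with an unadjusted p = 0.0317, 0.0394 and 0.0443 and an adjusted p from 0.356 to 0.377 by limma, and Id1, Id3, Nog and Sostdc1 were 0.0902, 0.0580, 0.0837 and 0.191.

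With 6 libraries a genotype, the 95% intervals of the 9 genes still hold differences of up to 0.27 (Bambi) and 0.88 (Fst) in log2(RPKM + 1). The enamel list, the scaled relations and the group of Id1, Id2, Id3, Smad6 and Nog were added with the values already known.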
